A study of Mus musculus with 12 samples.

Results

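The genes described here drive the cell division cycle in mouse kidney tubular epithelial cells. They are 42 genes given by symbol, a textbook set drawn up with earlier results of these data known: 13 of DNA replication, 4 regulators of the entry into S phase (G1/S), 2 of S and G2 phase, and 23 of mitosis. All 42 were found by their mouse Ensembl identifiers among the 55487 genes counted, and all 42 passed the filter on low counts that left 12897 genes for the tests. The study's libraries formed 4 groups of 3: cells transduced with an Nnmt expression construct and given TGFβ, the same cells without TGFβ, mock-transduced cells given TGFβ, and mock-transduced cells without it. The groups are named Nnmt-OE + TGFβ, Nnmt-OE, mock + TGFβ and mock below.

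All 4 groups were conditionally immortalised tubular cells (im_TEC). Such cells carry SV40 large T antigen, a viral protein that binds the retinoblastoma proteins and p53. Per the labels, they were expanded at 33 °C with 10 ng/mL IFNγ and then kept for 7 days at 37 °C without it, which lowers the antigen's activity, in a medium that holds 10% serum and 20 ng/mL epidermal growth factor. Both constructs were selected with puromycin, and the TGFβ groups received 10 ng/mL of it over 48 h. Nnmt itself stood at 17.8 to 33.9 CPM (counts scaled to a common library size) over the 12 libraries. What 3' end the construct carries is not in the labels, so these 3' tags do not check the construct label. The labels do not state that replicates came from separate cultures. The p-values below therefore reflect how far these libraries spread, which may be technical.

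A cell enters the cycle when mitogens raise D-type cyclins, which with their kinases phosphorylate the retinoblastoma protein and release E2F. E2F then switches on cyclin E and the replication genes. Later, the cyclin B and Cdk1 kinase drives mitosis. Many mitotic genes share promoter elements, the CCAAT box and the cell cycle genes homology region (CHR). Through the CHR, a repressor complex named DREAM keeps such genes low in resting cells. TGFβ is known to arrest many normal epithelial cells in G1, in part by raising inhibitors of cyclin-dependent kinases.

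The promoters of replication and mitosis genes differed in these elements. RefSeq (GRCm38.p6) gave promoters, 250 bases before to 50 bases after the start, for 34 of the 42 genes. They made 35 promoters, because Mcm7 has 2. Ccnd1, Ccne2, Ccna2, Mcm4, Cdc25c, Aurkb, Kif20a and Tpx2 had no entry matched. The letters searched on both strands were CCAAT for the CCAAT box, TTTGAA or TTCGAA for the CHR, and TTTCCCGC, TTTCGCGC, TTTGCCGC or TTTGGCGC for an E2F site. A CHR match stood in 15 of 19 mitosis promoters (78.9%), in 3 of 13 replication promoters (23.1%) and in 19.2% of all 32851 promoters. E2F letters stood in 1 of the 19 mitosis promoters (5.26%), that of Cdk1, in 4 of the 13 replication promoters (30.8%), and in 2.26% of all promoters. A CCAAT match was about as common in mitosis promoters (84.2%) as in replication promoters (84.6%), against 37.4% of all promoters. A match of letters is a description of the sequence and shows no binding.

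The 4 promoters printed here are examples from both classes: Cdk1, the mitosis gene that passed a test below, Top2a, the mitosis gene with the most tags, Mcm6, the gene with the most E2F matches, and Mcm10, the replication gene with the largest fold changes for TGFβ and for the construct. Each reads 5′ to 3′ on its own strand, with every match to the 3 kinds of letters in capitals. Both mitosis promoters hold CHR matches and both replication promoters lack them, while E2F letters stand in Cdk1 and Mcm6 and so do not separate the classes in this set.
Cdk1 promoter, chr10:69352863-69353162, minus strand: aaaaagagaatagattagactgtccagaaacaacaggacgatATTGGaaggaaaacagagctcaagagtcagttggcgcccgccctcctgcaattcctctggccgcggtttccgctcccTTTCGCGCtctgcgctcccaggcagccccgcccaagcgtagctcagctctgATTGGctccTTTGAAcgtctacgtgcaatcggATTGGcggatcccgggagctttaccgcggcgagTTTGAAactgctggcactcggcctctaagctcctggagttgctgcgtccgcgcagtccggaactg
Top2a promoter, chr11:99024140-99024439, minus strand: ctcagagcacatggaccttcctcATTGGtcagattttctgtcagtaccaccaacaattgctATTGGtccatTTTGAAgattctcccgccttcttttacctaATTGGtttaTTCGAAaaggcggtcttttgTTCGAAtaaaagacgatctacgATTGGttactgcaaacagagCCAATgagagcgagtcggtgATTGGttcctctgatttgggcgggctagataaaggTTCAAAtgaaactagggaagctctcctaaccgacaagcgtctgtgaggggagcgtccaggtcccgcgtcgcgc
Mcm6 promoter, chr1:128359656-128359955, minus strand: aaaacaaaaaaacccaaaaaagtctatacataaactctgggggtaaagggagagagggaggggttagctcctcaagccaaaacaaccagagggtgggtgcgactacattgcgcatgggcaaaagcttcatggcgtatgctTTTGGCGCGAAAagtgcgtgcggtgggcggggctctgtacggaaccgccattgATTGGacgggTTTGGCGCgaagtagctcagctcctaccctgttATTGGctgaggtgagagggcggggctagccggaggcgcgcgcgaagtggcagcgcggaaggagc
Mcm10 promoter, chr2:5012742-5013041, minus strand: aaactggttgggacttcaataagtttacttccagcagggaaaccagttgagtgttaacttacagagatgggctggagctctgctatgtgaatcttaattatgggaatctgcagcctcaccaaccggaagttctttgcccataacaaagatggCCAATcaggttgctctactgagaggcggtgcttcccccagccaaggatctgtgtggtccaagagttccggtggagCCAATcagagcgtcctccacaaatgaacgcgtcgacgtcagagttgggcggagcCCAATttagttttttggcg
Counting the start as 0, Cdk1 holds CCAAT matches at -208, -80 and -48, CHR matches at -71 and -15, and E2F letters at -131. Top2a holds 6 CCAAT and 4 CHR matches. Mcm6 holds 3 E2F matches, at -110, -106 and -47, of which the first 2 overlap each other, and has 0 CHR matches. Mcm10 holds CCAAT matches at -98, -23 and 31 and neither of the other elements.

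The libraries held between 4733846 and 7247413 reads in genes, and replicates of every group differed by more than sampling noise. Mock replicate 1, mock + TGFβ replicate 3 and Nnmt-OE + TGFβ replicate 3 stood apart on the first 3 principal components (15.3, 12.9 and 11.5% of the variance). Of the 14 tubular marker genes 8 were tested, with Aqp1, Pax2, Pax8, Lrp2 and Cdh16 present and Cdh1 and Epcam at 0 in every library. The summed tubular markers lay at 1540 to 1700 CPM in Nnmt-OE + TGFβ, 2010 to 2060 in Nnmt-OE, 1500 to 1540 in mock + TGFβ and 1700 to 2010 in mock. The 6 fibroblast markers, with Lum and Thy1 at 0, summed to 10.2 to 16.1 CPM in Nnmt-OE + TGFβ, 1.17 to 5.54 in Nnmt-OE, 7.95 to 13.7 in mock + TGFβ and 3.02 to 6.54 in mock. Tubular sums were thus lower and fibroblast sums higher with TGFβ in both constructs, and their part in the results below was not tested. Endothelial markers reached at most 0.44 CPM, and leukocyte markers 13.4 CPM, nearly all of it Cd68. The library codes in the labels run in a block for each group, so handling and group cannot be told apart.

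Cell cycle genes were abundant in every group. The 42 genes had a median level of 138 CPM, against 25.6 CPM for all genes tested, and 28 of 42 reached 100 CPM, against 16.7% of all genes. The levels ran up to 794 CPM for Mcm7, a subunit of the replicative helicase, and down to 18.2 CPM for Cdc25c, a phosphatase that activates Cdk1. Top2a, the topoisomerase that untangles sister chromosomes, followed at 742 CPM, and the G1 cyclin gene Ccnd1 at 601 CPM. Tags lie near the 3' end of a transcript in these libraries, so levels were not scaled for length. How evenly the 3' ends of different genes were counted was not tested, so ranks between genes are approximate.

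The proliferation marker Mki67 had 212, 213 and 199 CPM in Nnmt-OE + TGFβ, 184, 213 and 196 CPM in Nnmt-OE, 224, 208 and 204 CPM in mock + TGFβ, and 204, 218 and 204 CPM in mock. These 4 ranges overlap, and TGFβ against none, averaged over both constructs, gave Mki67 a fold of 1.03 (95% interval 0.941 to 1.14, edgeR adjusted p = 0.795).

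**Figure D1:**
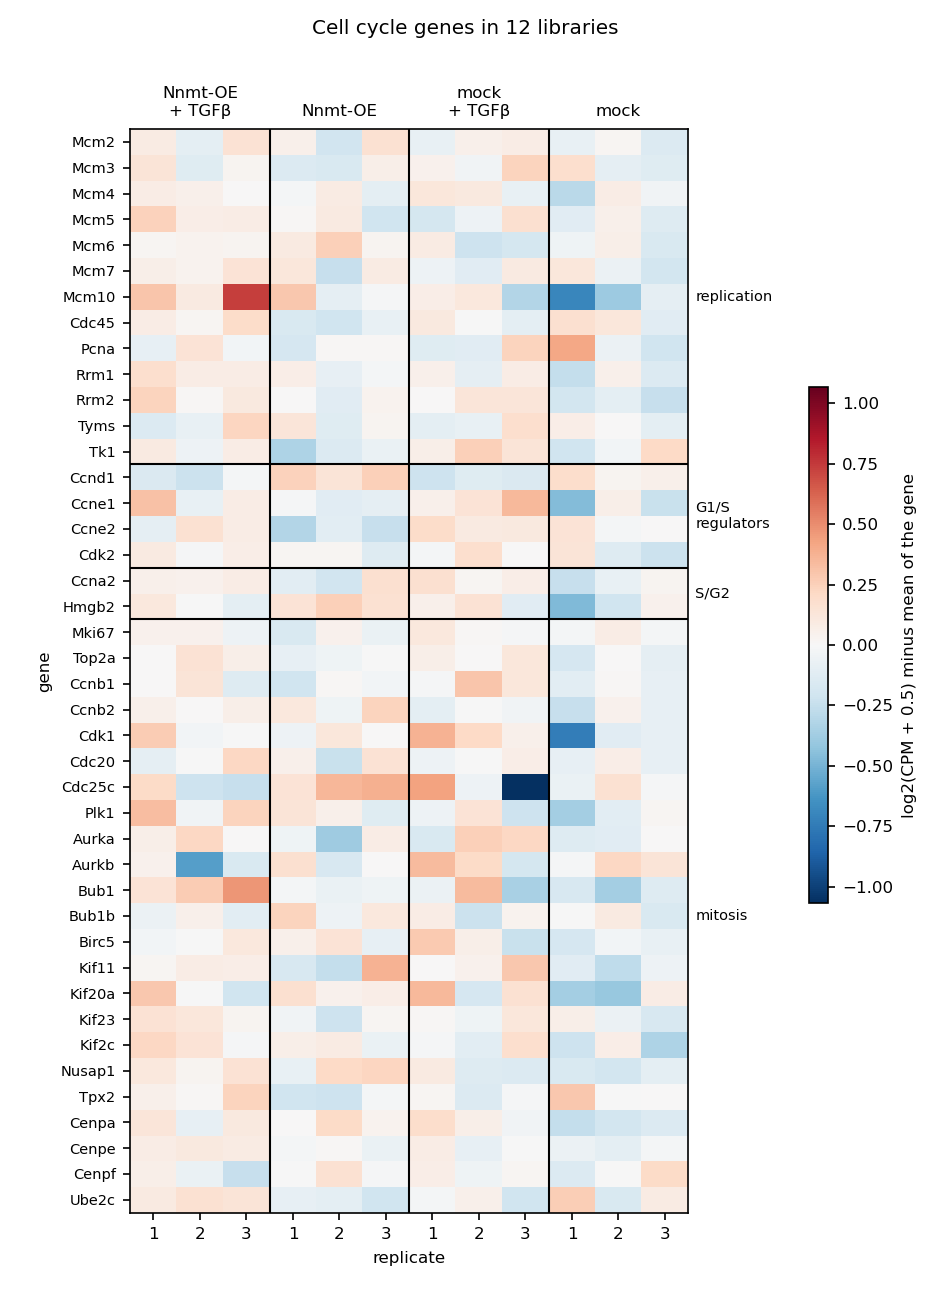
Each cell is 1 gene in 1 library, coloured by log2(CPM + 0.5) minus the mean of that gene over the 12 libraries, with genes in rows by class and libraries in columns by group. Most cells are pale, and the deepest are Cdc25c in mock + TGFβ replicate 3, Mcm10 and Cdk1 in mock replicate 1 and Mcm10 in Nnmt-OE + TGFβ replicate 3.

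The first comparison asked what TGFβ did to these genes. Averaged over both constructs, TGFβ lowered Ccnd1, and no other of the 42 genes passed the test (edgeR quasi-likelihood test, Benjamini-Hochberg adjusted p under 0.05 over all 12897 genes). That is 1 of 42 called, lower, where 5.08% of all genes were called and 2.6% were called lower. In such bulk libraries, fewer cells that carry a transcript and less of it per cell cannot be told apart. The remaining genes leaned the other way by small amounts: 34 of 42 had a log2 fold change above 0 (81%, against 49.2% of all genes), and their median was 0.10, against -0.00461 over all genes. At an unadjusted p under 0.05 there were 9 genes, 21.4% of the 42, against 16.6% of all genes, and 8 of them were higher (19%, against 8.34%). Cell cycle genes may rise and fall together within a library. Such counts, here and below, are therefore not 42 independent observations, and they were not tested.

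Ccnd1 (ENSMUSG00000070348) encodes cyclin D1, the partner of Cdk4 and Cdk6 that links mitogen signals to the retinoblastoma protein. It had 538, 509 and 589 CPM in Nnmt-OE + TGFβ and 709, 657 and 711 CPM in Nnmt-OE. In mock + TGFβ it had 513, 546 and 535 CPM, and in mock 678, 608 and 621 CPM. All 6 TGFβ libraries lay below all 6 untreated ones. The averaged fold was 0.812 (95% interval 0.749 to 0.88, log2 -0.30 ± 0.06 SE, edgeR adjusted p = 0.000592). The other D-type cyclin genes, read from the further lists below, did not pass. Ccnd2 averaged 1493 CPM over the 12 libraries, with a fold for TGFβ of 0.992 (0.914 to 1.075, edgeR adjusted p = 0.954). Ccnd3 averaged 82.6 CPM, with a fold of 1.05 (0.927 to 1.2, edgeR adjusted p = 0.755).

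Within each construct the fall of Ccnd1 was of similar size. In cells labelled Nnmt-OE the fold was 0.788 (0.703 to 0.883, edgeR adjusted p = 0.0174), the only one of the 42 genes called there, where 1.4% of all genes were called and 0.744% lower. That call was lost without Nnmt-OE replicate 1 (edgeR adjusted p = 0.0968) or replicate 3 (0.106), or without Nnmt-OE + TGFβ replicate 1 (0.0993) or replicate 2 (0.159). In mock cells Ccnd1 stood at -0.26 ± 0.08 (SE) on the log2 scale and did not pass (edgeR adjusted p = 0.112). The difference between the constructs was -0.09 (edgeR adjusted p = 0.999). The averaged call held in all 20 alternatives, with adjusted p between 9.62e-06 and 0.00561. Ccnd1 overlaps LTO1 on the opposite strand, and the strand setting of the counting is not given in the sources used here. LTO1 had 7.31 to 21.1 CPM.

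The E-type cyclins act next, binding Cdk2 to start S phase, and neither passed. Ccne1 averaged 64.7 ± 8.99 CPM in Nnmt-OE + TGFβ and 56.6 ± 2.2 CPM in Nnmt-OE, and 67.9 ± 7.1 CPM in mock + TGFβ and 52.1 ± 9.67 CPM in mock (SD, n = 3 each). Its averaged fold was 1.22 (1.05 to 1.42, edgeR adjusted p = 0.118), with overlapping libraries in both constructs. Ccne2 had an averaged fold of 1.14 (1 to 1.29, edgeR adjusted p = 0.283), and Cdk2 one of 1.07 (0.958 to 1.2, edgeR adjusted p = 0.585). Ccnd1 was the single gene with a value below 0 among the 4 G1/S genes.

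**Figure D2:**
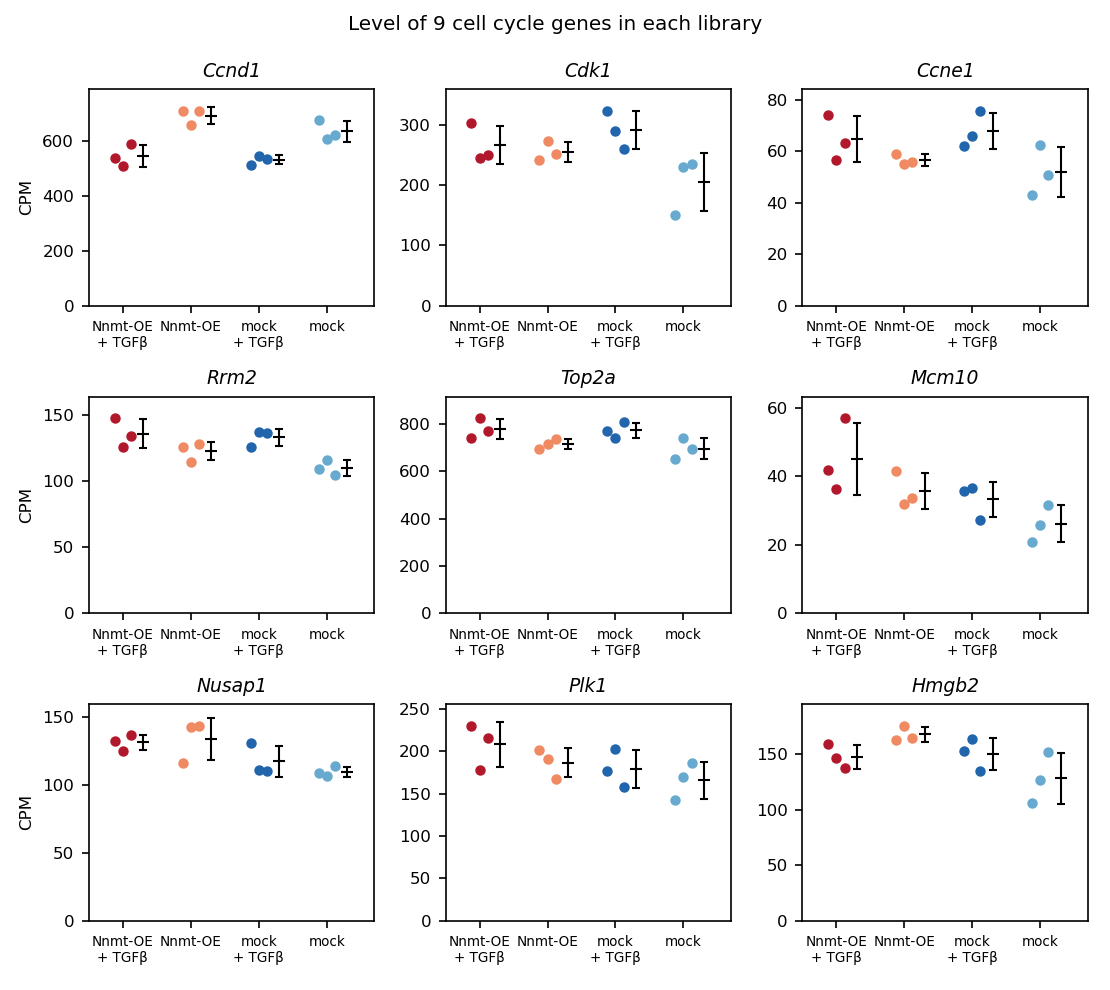
Points show CPM of 9 genes in each library, by group, and bars the mean and SD of 3 libraries. The 6 TGFβ libraries lie below the 6 untreated libraries for Ccnd1, and mock replicate 1 is the lowest library for Cdk1, Ccne1, Top2a, Mcm10, Plk1 and Hmgb2.

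Of the 13 replication genes, 0 were called for TGFβ in either construct or in the average by edgeR (3 in the average at an unadjusted p under 0.05), and 0 by DESeq2 or limma-voom. In the average, 11 of 13 had values above 0, and the median log2 fold change was 0.10. Rrm2, the small subunit of ribonucleotide reductase, which supplies deoxynucleotides, came nearest. It had 147, 126 and 134 CPM in Nnmt-OE + TGFβ, 125, 115 and 128 CPM in Nnmt-OE, 125, 137 and 136 CPM in mock + TGFβ, and 109, 116 and 105 CPM in mock. The mock + TGFβ libraries all lay above the mock ones, while the Nnmt-OE groups overlapped. The averaged fold of Rrm2 was 1.16 (1.04 to 1.29, edgeR adjusted p = 0.116). The thymidine kinase gene Tk1 stood at 1.14-fold (1.01 to 1.27, edgeR adjusted p = 0.225) and Mcm10, a factor that helps to activate the helicase at origins, at 1.27-fold (1.04 to 1.54, edgeR adjusted p = 0.187). The 6 subunits of the Mcm2-7 helicase ran in a narrow range, with Mcm6 lowest at 0.949-fold (0.853 to 1.06) and Mcm5 highest at log2 0.11. The sliding clamp gene Pcna had a fold of 0.999 (0.858 to 1.16) and the thymidylate synthase gene Tyms one of 1.00 (0.885 to 1.13).

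Cdk1 was the single mitosis gene called, and only in the comparison within mock cells, where 1.43% of all genes were called and 0.667% higher. Cdk1 (ENSMUSG00000019942) encodes the kinase that drives entry into mitosis. It had 323, 290 and 260 CPM in mock + TGFβ, against 150, 230 and 235 CPM in mock, a fold of 1.42 (1.18 to 1.71, edgeR adjusted p = 0.0497). The groups did not overlap, and mock replicate 1 was far below the other 2. In labelled Nnmt-OE cells it had 302, 245 and 250 CPM with TGFβ, against 241, 272 and 251 CPM without it, a fold of 1.04 (0.866 to 1.26, edgeR adjusted p = 0.923). The difference between the constructs was -0.45 on the log2 scale (edgeR adjusted p = 0.999).

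Averaged over both constructs, Cdk1 had a fold of 1.22 (1.07 to 1.39, edgeR adjusted p = 0.0772), which passed in 4 of 20 alternatives: with no filter (0.0029), in the fit of the 9 libraries other than the 3 that stood apart (0.0138), without mock replicate 3 (0.0236) and without mock + TGFβ replicate 3 (0.0457).

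The Cdk1 call in mock cells was marginal. It held in 9 of 21 alternatives, with adjusted p from 0.000117 to 0.21. Without mock replicate 1 the log2 fold change was 0.33 (edgeR adjusted p = 0.125), against 0.51 with it. It was also lost without mock + TGFβ replicate 1 (edgeR adjusted p = 0.21) or replicate 2 (0.173). Leaving out any Nnmt-OE replicate, or Nnmt-OE + TGFβ replicate 2 or 3, kept the log2 value at 0.51 with an edgeR adjusted p of 0.0639 to 0.0923. Mock replicate 1 was the lowest of the 12 libraries in 11 of the 42 genes. Among the 3 mock libraries it was the lowest in 18 of the 42 genes and in 37.8% of all genes tested.

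The other mitosis genes moved little with TGFβ. In the average, 18 of 23 had values above 0, with a median of 0.09. Top2a had 742, 825 and 773 CPM in Nnmt-OE + TGFβ against 697, 718 and 739 CPM in Nnmt-OE, and 773, 742 and 808 CPM in mock + TGFβ against 653, 741 and 694 CPM in mock. The TGFβ libraries lay above the untreated ones within each construct, but the averaged fold was only 1.10 (1.02 to 1.19, edgeR adjusted p = 0.176). Bub1, a kinase of the spindle checkpoint, stood at 1.22-fold (1.02 to 1.47, edgeR adjusted p = 0.242). Birc5, the survivin gene, Cdc20, the activator of the anaphase-promoting complex, and Cenpf, a kinetochore protein gene, had log2 values of 0.07, 0.04 and -0.07. The lowest was Cdc25c at -0.25, whose 3 mock + TGFβ libraries ranged from 8.13 to 23.8 CPM.

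The intervals were narrow for most of these genes. In the averaged TGFβ comparison, 40 of 42 genes had a 95% interval within 1.5-fold either way and all 42 within 2-fold. The intervals are for single genes and are not adjusted for their number. In the 4 comparisons of 2 groups, 36 to 38 genes lay within 1.5-fold.

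The TGFβ comparisons within the constructs share no library, so their values can be read side by side. In labelled Nnmt-OE cells 29 of 42 genes had values above 0 and in mock cells 33, against 49.7% of all genes in each. Of the 42 genes, 25 had values above 0 in both, 5 below 0 in both and 12 of opposite sign. Replicates did not overlap for 12 genes in labelled Nnmt-OE cells (28.6%, against 17.6% of all genes), 10 of them higher with TGFβ (23.8%, against 8.7%). In mock cells they did not overlap for 6 genes (14.3%, against 16.4%), 5 of them higher (11.9%, against 7.78%). Ccnd1 was lower and Top2a higher without overlap in both.

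**Figure D3:**
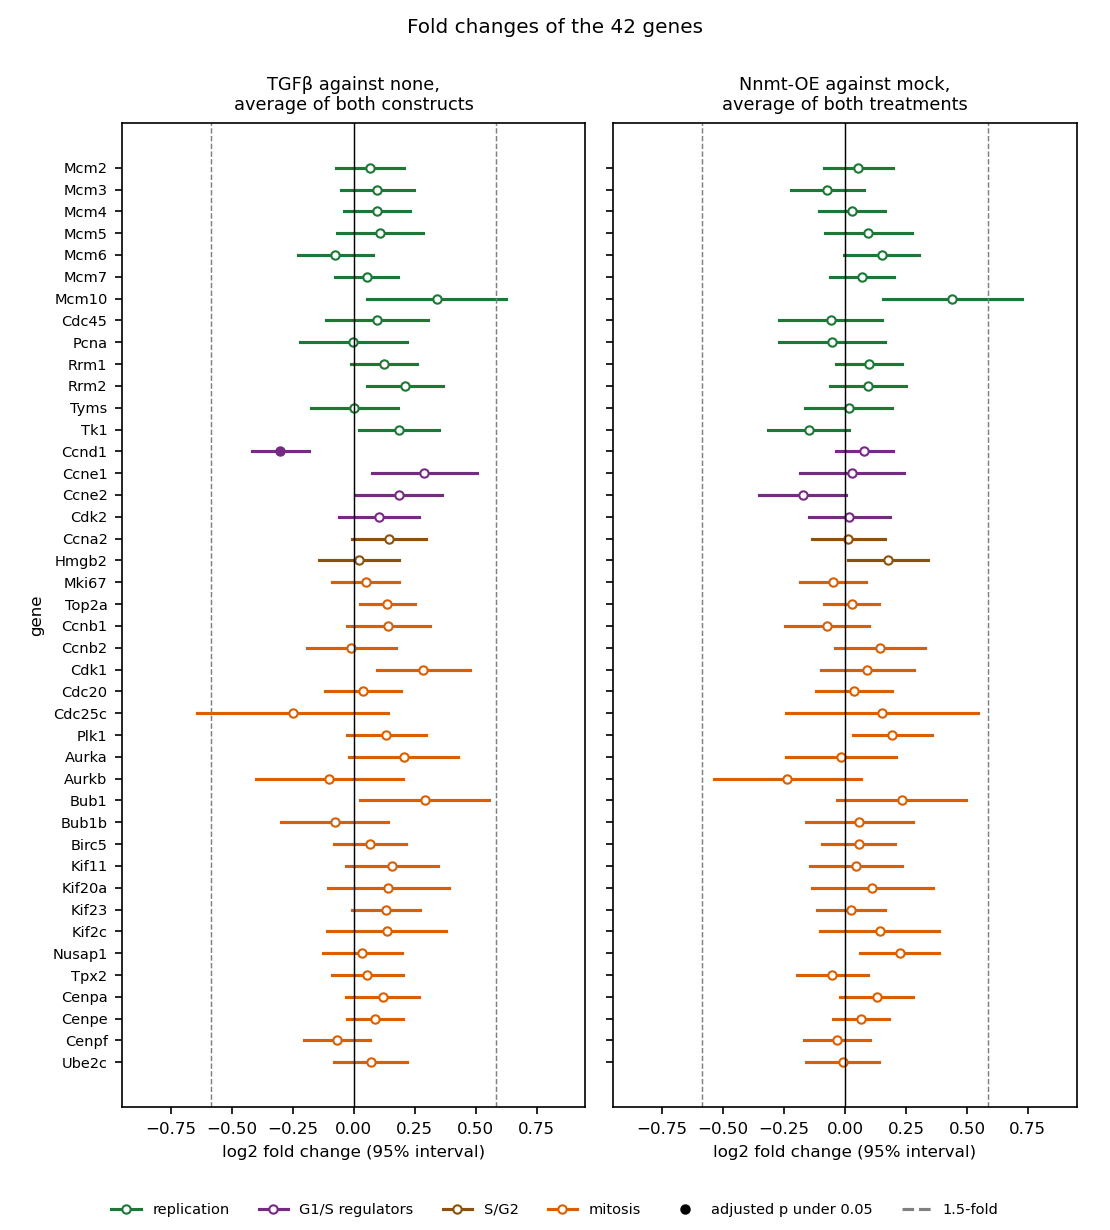
Points are log2 fold changes with 95% intervals for the 42 genes, for TGFβ against none (left) and Nnmt-OE against mock (right), each averaged over the other factor, with dashed lines at 1.5-fold. Ccnd1 for TGFβ is the only filled point, an adjusted p under 0.05, and Mcm10 has the highest value on both sides (0.34 and 0.44).

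The second comparison asked what the Nnmt construct did. None of the 42 genes was called: 0 without TGFβ, 0 with TGFβ and 0 in the average by edgeR, and 0 by DESeq2 and limma-voom. All genes gave few calls as well, 0.0388% without TGFβ, 0.0233% with it and 0.0698% in the average. At an unadjusted p under 0.05 there were 7 of 42 without TGFβ (16.7%, against 5.84% of all genes), 1 with it (2.38%, against 4.46%) and 4 in the average (9.52%, against 6.23%). In the average, 30 of 42 genes had values above 0 (71.4%, against 49.6% of all genes), with a median of 0.05, and 41 of 42 intervals lay within 1.5-fold either way. Without TGFβ, 30 of 42 were above 0 (71.4%, against 50.2% of all genes), and with it 23 (54.8%, against 49.5%). Of the 42 genes, 17 had opposite signs without and with TGFβ.

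Mcm10 had the largest value for the construct. It had 41.8, 36.4 and 56.9 CPM in Nnmt-OE + TGFβ and 35.7, 36.7 and 27.2 CPM in mock + TGFβ, and 41.6, 31.8 and 33.6 CPM in Nnmt-OE and 20.8, 25.9 and 31.7 CPM in mock. The groups overlapped with TGFβ and were just apart without it. The averaged fold was 1.36 (1.11 to 1.65, edgeR adjusted p = 0.478). Nusap1, a protein of the spindle microtubules, averaged 1.17-fold (1.04 to 1.31, edgeR adjusted p = 0.635), and Plk1, a kinase of mitotic entry and spindle assembly, 1.14-fold (1.02 to 1.28, edgeR adjusted p = 0.699). In a fit of the 9 libraries other than the 3 that stood apart, the log2 value of Mcm10 was 0.205, against 0.44 with all libraries, and that of Plk1 was 0.0885, against 0.19.

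Hmgb2, a chromatin protein gene of S and G2 phase, had the smallest adjusted p of the 42 genes for the construct without TGFβ. It had 163, 176 and 165 CPM in Nnmt-OE, against 106, 127 and 152 CPM in mock, a fold of 1.30 (1.11 to 1.53, edgeR adjusted p = 0.782). With TGFβ it had 159, 147 and 137 CPM in Nnmt-OE + TGFβ, against 153, 164 and 135 CPM in mock + TGFβ, a fold of 0.981 (0.835 to 1.15, edgeR adjusted p = 0.998). The groups were apart only in the untreated libraries, where mock replicate 1 was again the lowest.

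Whether TGFβ acted differently in the 2 kinds of cells was tested as an interaction. None of the 42 genes passed, and 0 of all 12897 genes did (0% called, edgeR). At an unadjusted p under 0.05 there were 5 of 42 (11.9%, against 3.88% of all genes), and 0 passed by DESeq2 or limma-voom. The TGFβ fold changes of Hmgb2, Cdk1 and the centromeric histone gene Cenpa were lower in labelled Nnmt-OE than in mock cells. Their differences were -0.41, -0.45 and -0.31 on the log2 scale. Fold changes of the spindle assembly factor gene Tpx2 and the ubiquitin-conjugating enzyme gene Ube2c were higher (a difference of 0.40 for each). Ube2c serves the anaphase-promoting complex. Tpx2 had 222, 215 and 252 CPM in Nnmt-OE + TGFβ against 184, 183 and 210 CPM in Nnmt-OE, and 217, 193 and 212 CPM in mock + TGFβ against 261, 212 and 214 CPM in mock. For Tpx2 and Ube2c mock replicate 1 was the highest of the 12 libraries, and for Cdk1, Hmgb2 and Cenpa it was the lowest.

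Replication and mitosis genes were then compared as classes, without a test, since the members were chosen. Replication genes summed to 2762 ± 104 CPM in Nnmt-OE + TGFβ and 2600 ± 141 CPM in Nnmt-OE, and to 2658 ± 99.7 CPM in mock + TGFβ and 2529 ± 114 CPM in mock (SD, n = 3 each). Mitosis genes summed to 4317 ± 42.7 CPM in Nnmt-OE + TGFβ and 4100 ± 60.9 CPM in Nnmt-OE, and to 4239 ± 130 CPM in mock + TGFβ and 3940 ± 123 CPM in mock. For mitosis genes the 6 TGFβ libraries, from 4156 to 4389 CPM, all lay above the 6 untreated ones, from 3802 to 4136 CPM, on the TMM-scaled values. As a plain share of reads in genes the mitosis sums overlapped, at 0.413 to 0.441% with TGFβ and 0.373 to 0.418% without it. For replication genes the TGFβ libraries ran from 2579 to 2838 CPM and overlapped the untreated ones, from 2398 to 2684 CPM. The share of reads on ribosomal protein genes also stood higher with TGFβ, at 1.07 to 1.2% of reads in genes, against 0.905 to 1.03% without it, and its part in these sums was not tested.

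The ratio of replication to mitosis tags showed no separation of the groups. It was 0.642, 0.616 and 0.661 in Nnmt-OE + TGFβ, 0.666, 0.589 and 0.648 in Nnmt-OE, 0.598, 0.618 and 0.667 in mock + TGFβ, and 0.68, 0.654 and 0.594 in mock. The range of each group overlapped that of every other group.

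The class medians depended on single libraries. Between replicates, the median of a class had a pooled SD of 0.0638 for replication and 0.0352 for mitosis genes (log2). Some of the shifts below were smaller than that. For TGFβ averaged over both constructs the median log2 fold change of replication genes was 0.0583 without mock + TGFβ replicate 3, against 0.0957 with it. In mock cells it was 0.09 for replication and 0.10 for mitosis genes. The replication value there was 0.019 without mock + TGFβ replicate 3, 0.0431 without mock replicate 3 and 0.0586 without mock replicate 1. In labelled Nnmt-OE cells it was 0.10 for replication and 0.06 for mitosis genes, and without Nnmt-OE replicate 1 it was 0.149 for replication and 0.0243 for mitosis. The mitosis value there was 0.108 without Nnmt-OE + TGFβ replicate 3.

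For the construct without TGFβ the median was 0.0375 for replication and 0.13 for mitosis genes. Leaving out any 1 of the 6 libraries compared moved the replication value by more than 1.5 times, over a range from 0.00586 (without mock replicate 3) to 0.101 (without mock replicate 2). For mitosis genes, dropping mock replicate 1 gave 0.0669, dropping Nnmt-OE replicate 1 gave 0.0655 and dropping Nnmt-OE replicate 3 gave 0.0594. For the construct with TGFβ the median was 0.0319 for replication and 0.0107 for mitosis genes. The replication value was 0.0646 without Nnmt-OE + TGFβ replicate 1, 0.101 without its replicate 2 and 0.0809 without mock + TGFβ replicate 3. The mitosis value, close to 0, moved by more than 1.5 times without any 1 of the 6 libraries compared or mock replicate 1, from 0.00503 (without Nnmt-OE + TGFβ replicate 1) to 0.0546 (without mock + TGFβ replicate 1).

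**Figure D4:**
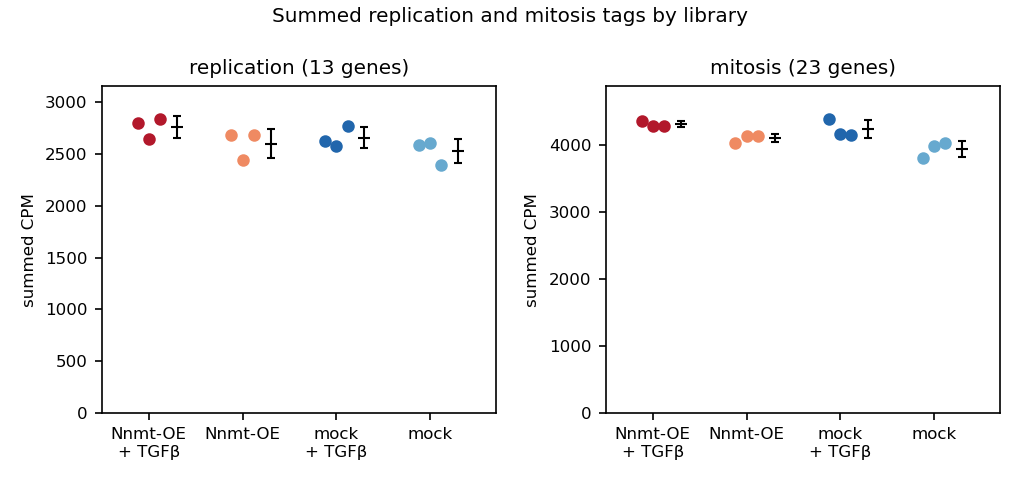
Points show the summed CPM of the 13 replication genes (left) and of the 23 mitosis genes (right) in each library, by group, with the mean and SD of 3 libraries. The TMM-scaled mitosis sums lie between 4156 and 4389 CPM with TGFβ and between 3802 and 4136 CPM without it, but overlap as plain shares of reads, and the replication sums overlap on both scales.

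Further genes of the same machinery were read from 8 lists with 161 genes, 159 of them tested. For TGFβ averaged over both constructs 3 rose and 1 fell, where 2.48% of all genes were called higher and 2.6% lower. The gene that fell was Rbl2, which encodes p130, a pocket protein of the DREAM complex. Rbl2 had 25.8, 25.6 and 25.4 CPM in Nnmt-OE + TGFβ against 42.7, 41.1 and 37.5 CPM in Nnmt-OE, and 30.0, 27.2 and 27.2 CPM in mock + TGFβ against 30.6, 39.7 and 42.2 CPM in mock. Its TGFβ libraries lay below the untreated ones in both constructs, by a fold of 0.69 (0.575 to 0.828, edgeR adjusted p = 0.00801), and the call held in all 20 alternatives.

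The genes that rose were Dbf4, the activator of the origin-firing kinase Cdc7 (1.20-fold, edgeR adjusted p = 0.0394), Cenph, a kinetochore gene (1.26-fold, edgeR adjusted p = 0.0342), and Kif20b, a kinesin gene of cytokinesis (1.15-fold, edgeR adjusted p = 0.0489). Dbf4 averaged 198 ± 16 CPM in Nnmt-OE + TGFβ and 179 ± 7.78 CPM in Nnmt-OE, and 206 ± 27.1 CPM in mock + TGFβ and 158 ± 27.5 CPM in mock (SD, n = 3 each). The call of Dbf4 was lost without mock replicate 2, mock + TGFβ replicate 3, any Nnmt-OE replicate or Nnmt-OE + TGFβ replicate 1 or 3 (edgeR adjusted p of 0.0513 to 0.157), with library totals (0.0538) and in the fit of 9 libraries (0.103). That of Cenph was lost without mock replicate 1 or 3, mock + TGFβ replicate 1 or 3, Nnmt-OE replicate 2 or 3, or Nnmt-OE + TGFβ replicate 1 or 2 (0.0611 to 0.119), and in the fit of 9 libraries (0.0681). That of Kif20b was lost without any library of the TGFβ groups, mock replicate 2 or 3, or Nnmt-OE replicate 1 or 3 (0.0513 to 0.168), with library totals (0.0634), with no filter (0.0671) and with a block for the replicate number (0.063). In mock cells alone, the condensin gene Ncapg rose, with 89.0, 97.1 and 100.2 CPM in mock + TGFβ against 64.1, 67.5 and 68.1 CPM in mock (1.43-fold, edgeR adjusted p = 0.0272). That call was lost without any 1 mock replicate or without mock + TGFβ replicate 2 or 3 (edgeR adjusted p of 0.0532 to 0.124), in the fit of 9 libraries (0.114) and with only the groups compared (0.0639). In labelled Nnmt-OE cells Ncapg had a fold of 1.01 (edgeR adjusted p = 0.989), and the interaction did not pass (adjusted p = 0.999).

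Of the 7 inhibitor genes of cyclin-dependent kinases, 6 were tested, Cdkn1c being below the filter, and 0 were called for TGFβ or the construct by edgeR. At an unadjusted p under 0.05 there was 1 of 6 for TGFβ, Cdkn2b (against 16.6% of all genes), and there were 2 of 6 for the construct, Cdkn1a and Cdkn2a (against 6.23%), both in the averages. Cdkn2b, which encodes p15, the inhibitor that TGFβ is known to raise in many epithelial cells, averaged 29.8 ± 3.39 CPM in Nnmt-OE + TGFβ and 42.8 ± 10.9 CPM in Nnmt-OE, and 32.4 ± 7.75 CPM in mock + TGFβ and 35.7 ± 3.42 CPM in mock (SD, n = 3 each). Its averaged fold was 0.796 (0.652 to 0.971, edgeR adjusted p = 0.209). Cdkn1a, the p21 gene, had an averaged fold for TGFβ of 0.993 (0.88 to 1.12, edgeR adjusted p = 0.978), and Cdkn1b, the p27 gene, one of 0.905 (0.695 to 1.18, edgeR adjusted p = 0.759). Over the 159 genes the median log2 fold change was 0.06 for TGFβ and -0.00212 for the construct, both averaged.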

How the data were processed

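Polyadenylated RNA of 12 libraries was measured as 3' tags, with libraries made from 100 ng of RNA by a forward QuantSeq kit, per the labels' protocols. The authors deposited a single table of raw read counts by gene. The submitters' processing notes list STAR, HTSeq and the human build GRCh38, while the deposited identifiers are mouse Ensembl ones. The mouse build, annotation, strand setting and tool versions are not stated there. Reads outside genes (26.4 to 28.79%) and ambiguous reads (0.603 to 0.679%) stayed out of library sizes and tests. Since molecular identifiers are not mentioned, reads and not molecules were counted.

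Symbols came from a GENCODE M21 name table, which matched 55141 of 55487 identifiers. In that annotation 14 of the 42 genes overlap an exon of another gene, 13 of them on the opposite strand, and Pcna, Tyms, Ccnb1 and Ccnb2 have named pseudogenes, so their counts are less certain.

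Samples were grouped by title. One fit of all 12 libraries with a mean per group was made in edgeR 4.0.16 (R 4.3.3): filterByExpr (minimum count 10), TMM scaling (factors 0.9815 to 1.0115), robust quasi-likelihood F tests, and Benjamini-Hochberg adjustment over 12897 genes at 0.05, for 7 contrasts. The script was tested on simulated data. CPM are counts over the TMM-scaled library size, and intervals are 95% model intervals. Alternatives were RLE scaling, library totals, no filter, a stricter filter, DESeq2 1.42.0, limma-voom (limma 3.58.1), a replicate block, the groups compared only, each library left out, and the 9 libraries other than the 3 that stand apart.

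The 42 genes, their classes, the 8 further lists and the markers were chosen with earlier results of these data known. In the text, values in each library are given for Ccnd1 and Cdk1, the genes of the 42 called in any contrast. They are also given for Hmgb2, Mki67 and Tpx2. Of genes with the smallest adjusted p in the averaged contrasts, Rrm2, Top2a and Mcm10 are given by library and Ccne1 by mean and SD. Nusap1 and Plk1 are given by fold. Of the called genes of the lists, Rbl2 and Ncapg are given by library, Dbf4 by mean and SD, and Cenph and Kif20b by fold. Mki67, Tpx2, Ccnd2, Ccnd3 and other genes given by 1 or 2 values were named after their values were seen.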

Additional observations from a re-analysis of the deposited data

How the results depend on the processing

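For TGFβ in mock cells, the count of the 42 genes called was 0 with library totals, with the stricter filter, with a block for the replicate number and with only the groups compared, 2 with DESeq2, and 0 to 1 when 1 library was left out, against 1 in the fit of all libraries. In that comparison the block gave Cdk1 an edgeR adjusted p of 0.0912, and it changed no other count over the 42 genes. Kif20b, of the further lists, stood at 0.063 with the block for TGFβ averaged. Deviations of same-numbered samples correlated at -0.107 to 0.0541 over 18 pairs, so the numbers were not read as a pairing. For TGFβ in labelled Nnmt-OE cells the count was 0 to 1 with 1 library left out. For TGFβ averaged over both constructs it was 2 with no filter and in the fit of 9 libraries, and 1 to 2 with 1 library left out. For the construct and the interaction the count was 0 in every alternative run. With 1 library left out, the median log2 fold change for TGFβ in mock cells ranged from 0.019 to 0.113 for replication and from 0.0753 to 0.142 for mitosis genes, and in labelled Nnmt-OE cells from 0.0243 to 0.108 for mitosis genes. For the construct without TGFβ the mitosis median ranged from 0.0594 to 0.137, and with TGFβ from 0.00503 to 0.0546, where the replication median ranged from 0.0279 to 0.101. The mitosis median of the interaction ranged from -0.122 to -0.0408. In the fit of 9 libraries, added after the data were seen, the mitosis medians were 0.104 for TGFβ in labelled Nnmt-OE cells, 0.0692 for the construct without TGFβ, 0.0475 with it and -0.0452 for the interaction. For TGFβ in labelled Nnmt-OE cells, Cdk1 ranged from -0.0401 (without Nnmt-OE + TGFβ replicate 1) to 0.116 with 1 library left out, against 0.06. The cause of these shifts was not tested. Over all genes, library totals moved the median log2 value by at most 0.0213 and RLE scaling by at most 0.00248.

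Between 2 groups, the 95% interval extended 0.23 either way on the log2 scale for the median gene of the 42, and 0.56 for Cdc25c, which had the fewest tags. Replicates differed by more than sampling noise, so these widths are not set by depth alone.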
